A study of Homo sapiens with 10 samples.

Results

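Neurexins, neuroligins, contactins and their relatives NCAM1 and L1CAM are cell adhesion proteins of nerve cells, and several of their genes are among the longest in the genome. The 9 genes described here are NRXN2 and NRXN3 (neurexins), NLGN1, NLGN2 and NLGN3 (neuroligins), CNTN1 and CNTN4 (contactins), NCAM1 and L1CAM. Their poly(A) peaks were taken by position alone: a peak was counted for a gene when its summit lay in the GENCODE 44 body of the gene or up to 600 bp past its 3′ end on GRCh38. This gave 285 peaks of the 178837 in the pooled list.

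The study asked how loss of the transcriptional kinases CDK12 and CDK13 changes the 3′ ends of mRNAs. Poly(A) 3′-seq was performed in IMR-32, an established human neuroblastoma cell line. All 10 libraries came from cells that carried a lentiviral pLKO.1 shRNA and had been selected with puromycin: 4 expressed an shRNA against CDK12 (2 hairpins, 2 libraries each), 4 an shRNA against CDK13 (2 hairpins, 2 libraries each) and 2 an shRNA against GFP, the control. The deposited list holds 1 set of peaks, called on the merged reads of all 10 libraries, with no strand and no value per library. No level per library, group or replicate could therefore be given, no knockdown effect could be computed, and the depletion of the 2 kinases and the depth of each library could not be checked in these values. Nothing here says in which of the 3 groups a peak arose, and effects of a knockdown and of the batch in which a library was processed cannot be told apart. All values come from 1 cell line. Intervals below are 95% intervals (Wilson for shares, exact Poisson for counts) that cover counting error only, and peaks of 1 gene are not replicates of each other.

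As background, neurexins sit mainly on the presynaptic membrane and bind neuroligins across the synaptic cleft. Neurexin genes use separate promoters for long (alpha) and short (beta) proteins. NLGN1 acts mostly at excitatory synapses, NLGN2 at inhibitory ones and NLGN3 at both. Contactins are anchored to the membrane by a lipid (GPI) and act in axon growth and in the contact between axons and glia, NCAM1 binds its own kind and carries polysialic acid, and L1CAM guides growing axons and is found on neuroblastoma cells. An mRNA is cleaved and polyadenylated downstream of a signal hexamer, most often AATAAA. Oligo(dT), which primes the libraries, can also anneal to runs of A inside a transcript, where no poly(A) tail exists.

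The identity of the cells was checked against markers. All 10 listed genes of adrenergic neuroblastoma had a peak in a terminal window, with a highest pileup from 16 to 114 reads (median 50), among them PHOX2A at 114 and MYCN at 73. The lowest of them were TH at 21, DBH at 17 and ISL1 at 16. Of 8 markers of mesenchymal or other cells, 5 had such a peak, with 3 to 22 reads, and PRRX1, PTPRC and PECAM1 had none. The 5 included FN1 at 22 and CD44 at 20, so the heights of the 2 lists overlapped. Of all protein-coding genes, 68.7% had a terminal peak. The height of a peak is given as the pileup at its summit, that is, the number of extended reads that cover it, recovered from the deposited fold and p-value. A pileup is taken at a single position and does not grow with gene length.

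The sequences at the 3′ ends of terminal peaks are shown first, because they mark annotated mRNA ends of 8 of the 9 genes. For each gene the tallest peak with an edge within 2 bp of the end of a protein-coding transcript was taken, which in NLGN1 were 2 peaks of equal height. Each is the 30 bases that end at the 3′ edge of the peak on the gene's strand, read from GRCh38, and capitals mark the signal hexamer nearest to that edge within these bases.
NRXN2 (GRCh38, chr11:64606175-64606204, minus strand): aaaAAGAAAacaaaaactttccaaattcca
NLGN1 (GRCh38, chr3:174283094-174283123, plus strand): gtttattgctgttttgtctttcttttttct
NLGN1 (GRCh38, chr3:174286613-174286642, plus strand): ttatcatgAATAAAtattaccatgttttcc
NLGN2 (GRCh38, chr17:7419830-7419859, plus strand): agaatattgtaaaTATAAAagtttaactgt
NLGN3 (GRCh38, chrX:71171170-71171199, plus strand): ataaaAATAAAaaatccagttagcactccc
CNTN1 (GRCh38, chr12:41072384-41072413, plus strand): gtAATAAAtgtcttatgttacccaagaaag
CNTN4 (GRCh38, chr3:3057931-3057960, plus strand): ttgttAATAAAtattctgtcatttgtaaag
NCAM1 (GRCh38, chr11:113278406-113278435, plus strand): gtgttcAATAAAaattgaaagaaaaaagct
L1CAM (GRCh38, chrX:153861512-153861541, minus strand): acaggcaAATAAAacctgaaaatcaagagc

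Within these bases, AATAAA was present in 6 genes, while NLGN2 had TATAAA, NRXN2 had AAGAAA and the first NLGN1 peak had none. The marked hexamer began 17 bp (NLGN2) to 28 bp (CNTN1) upstream, with the base at the edge counted as 1. In CNTN1 and NCAM1 an unmarked AAGAAA lay nearer to the edge. NRXN3 had no such peak.

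The 9 genes differed widely in the height of the peaks at their annotated ends. By default the peak caller (MACS2) counts reads that share a start and strand once. These heights are therefore not mRNA levels, and the intervals do not cover this limit. Each is also the highest of the gene's terminal peaks, which the intervals do not cover either. The highest pileup in a terminal window (from 200 bp before to 600 bp past the annotated end of a transcript) was 41 reads in NCAM1 (exact Poisson interval 29.4 to 55.6), 27 in L1CAM (17.8 to 39.3), 21 in CNTN1 (13.0 to 32.1), 18 in NLGN2 (10.7 to 28.4), 15 in NRXN2 (8.40 to 24.7), 14 in NLGN3 (7.65 to 23.5), 10 in CNTN4 (4.80 to 18.4) and 7 in NLGN1 (2.81 to 14.4). NRXN3 had no terminal peak. Neighbours in this order had overlapping intervals, whereas the interval of NCAM1 did not overlap those of NLGN2, NRXN2, NLGN3, CNTN4 or NLGN1. The median over all protein-coding genes that had a terminal peak was 23 reads. NCAM1 and L1CAM lay above it, and the other 6 genes with a terminal peak lay below. The intervals of L1CAM, CNTN1, NLGN2, NRXN2 and NLGN3 included 23, so their place above or below it is within counting error.

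Most peaks of the 9 genes did not lie at an annotated end. Of the 285 peaks, 254 (89.1%, 85.0% to 92.2%) were intronic, against 70.9% of all peaks in protein-coding genes. Terminal peaks made up 19 of 285 (6.67%, 4.31% to 10.2%, against 18.8%) and exonic peaks 12 (4.21%, 2.42% to 7.21%, against 10.3%). A terminal peak was present in 8 of the 9 genes, and in 68.7% of all protein-coding genes. A −log10 q-value of 20 or more was reached by 12 of the 285 (4.21%), against 8.26% of all peaks. The median pileup was 7 reads for the members' intronic peaks, 10 for their terminal peaks and 17 for their exonic peaks, while over all genes it was 8 for intronic and 17 for terminal peaks. The long genes NLGN1, CNTN1, CNTN4 and NCAM1 together held 247 of the 254 intronic peaks.

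**Figure D1:**
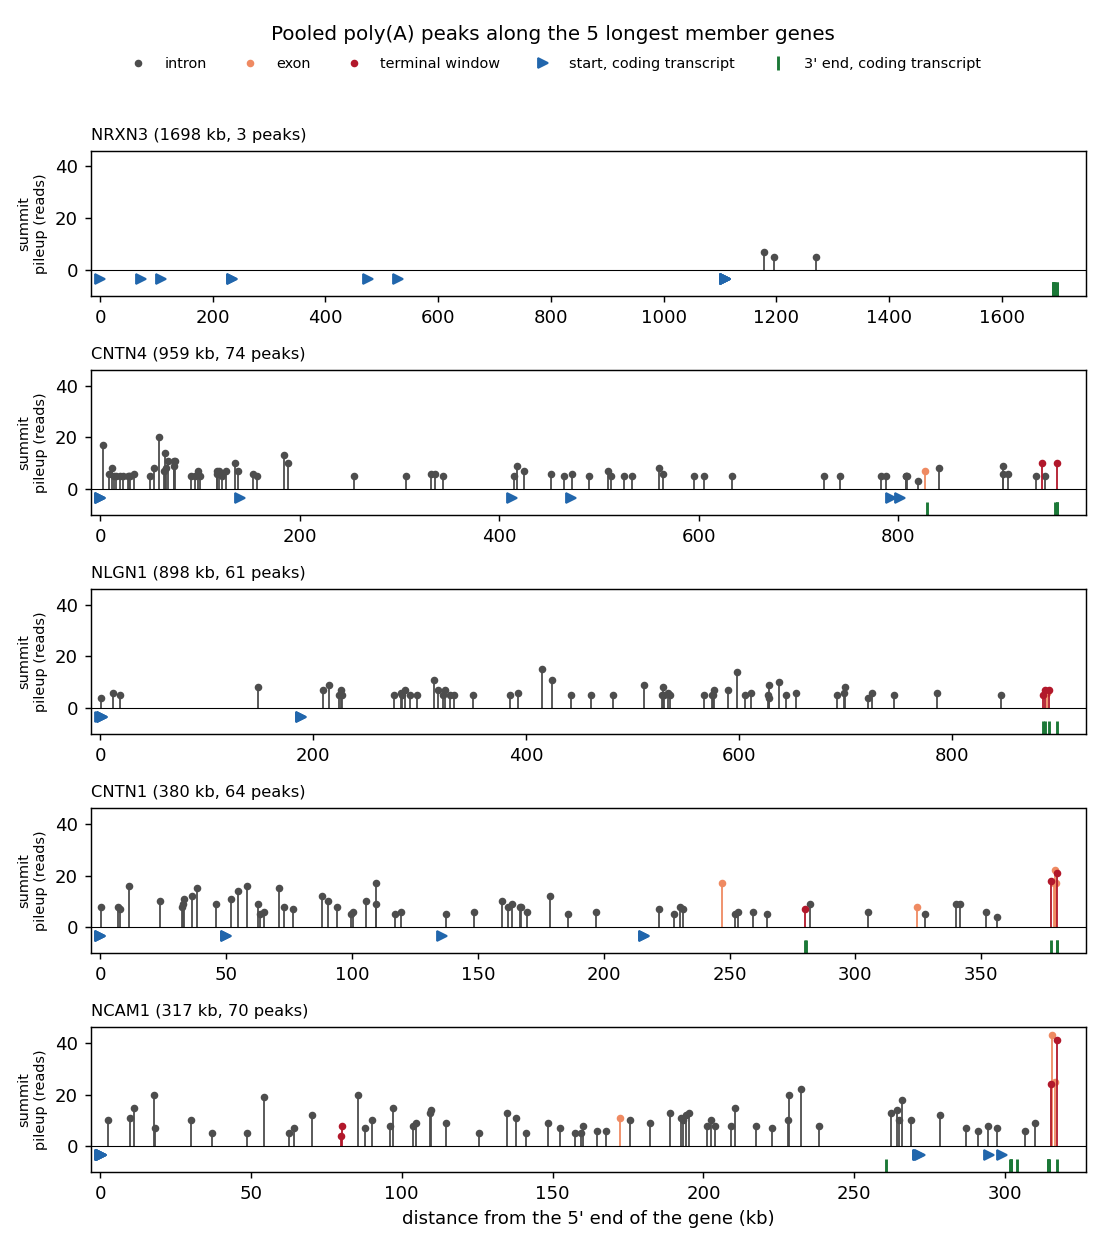
Peaks along the 5 longest genes: the x axis is the distance of the summit from the 5′ end of the gene (kb) and the y axis the pileup at the summit (reads), with intronic peaks in grey, exonic in orange and terminal in dark red, and with starts (blue) and 3′ ends (green) of protein-coding transcripts below each axis. The 3 peaks of NRXN3 lie between 1178 and 1271 kb, intronic peaks of CNTN4 crowd into its first 140 kb, and the highest peaks of NCAM1 and CNTN1 stand at the 3′ end.

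The neurexins carried few peaks for their length. NRXN2 (ENSG00000110076.21, chr11:64606174-64723197, minus strand, 117 kb, 15 protein-coding transcripts) had 5 peaks: 1 terminal, 1 in a coding exon and 3 in introns. Its terminal peak had 15 reads (−log10 q-value 19.3), and its 3′ edge lay 1 bp before the end shared by NRXN2-201 and NRXN2-202. The first has 23 exons and starts at the 5′ end of the gene, and the second has 7 exons and starts at 79.9 kb, so the peak does not separate long from short transcripts. In total 5 of the 10 protein-coding transcripts of NRXN2 with a complete 3′ end had a 3′ edge within 100 bp. The 3 intronic peaks of NRXN2 had 4, 5 and 6 reads, and all 3 lay in its downstream part, between 64.4% and 98.0% of its length. The tallest of these, at 114.6 kb in intron 22, was followed by 10 A in 10 bases.

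NRXN3 (ENSG00000021645.20, chr14:78170373-79868291, plus strand) is the longest of the 9 at 1698 kb and had 3 peaks, the lowest density among the genes with an intronic peak: 0.177 intronic peaks per 100 kb (0.0364 to 0.516). None of the 11 protein-coding transcripts with a complete end was matched, and the nearest peak lay 420307 bp or more before each of those ends. The 3 peaks had 7, 5 and 5 reads and all lay in intron 15 of NRXN3-202, downstream of the start at 1109 kb where the short protein-coding transcripts begin. No intronic peak lay in the 6 stretches of the gene upstream of that start. For 2 of the 3, the A-rich side was on the minus strand, opposite to the gene. The list gives no strand, so whether those 2 come from NRXN3 was not tested.

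**Figure D2:**
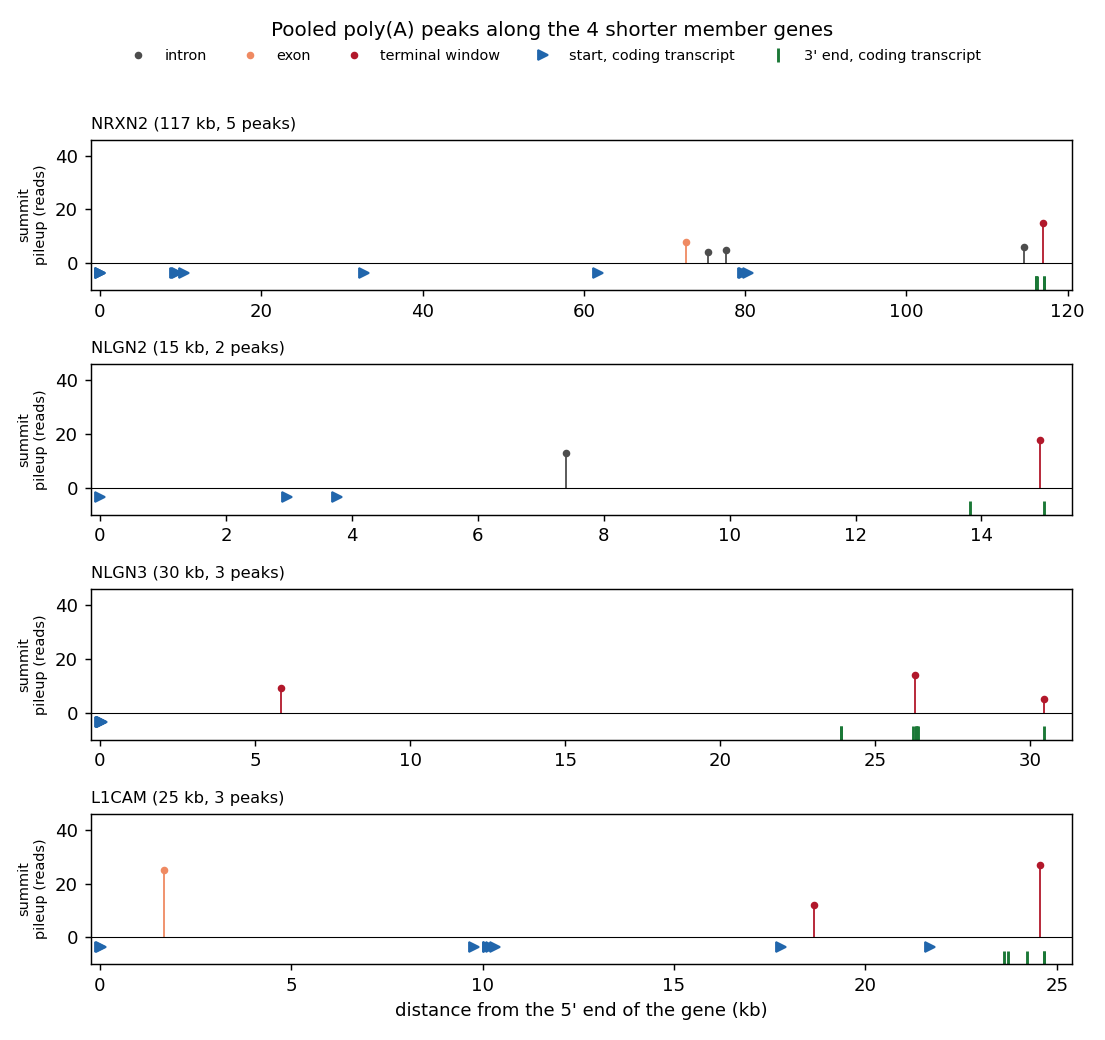
Peaks along the 4 shorter genes, on the same axes and with the same colours (x axis in kb from the 5′ end, y axis summit pileup in reads). NRXN2, NLGN2 and L1CAM each have their highest peak (15, 18 and 27 reads) at the last annotated 3′ end, whereas NLGN3 has its highest, 14 reads, at 26 kb, before the end of the gene at 30 kb.

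The 3 neuroligins showed 3 arrangements of ends. NLGN2 (ENSG00000169992.10, chr17:7404874-7419860, plus strand) had 1 terminal peak of 18 reads (−log10 q-value 20.5), 1 bp before the end of NLGN2-201. Its only other peak was intronic, at 7.40 kb in intron 2, with 13 reads, AAGAAA 16 bp upstream of its edge and 8 A in the 10 bases downstream. No peak lay at the second complete protein-coding end, that of NLGN2-204, which was 1175 bp from the nearest edge. NLGN2 was thus read from 1 end in this list.

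NLGN3 (ENSG00000196338.15, chrX:71144821-71175255, plus strand, 30.4 kb) had 3 peaks, all terminal, and no intronic peak (Poisson upper limit 12.1 per 100 kb). The tallest, with 14 reads (−log10 q-value 16.5), lay 2 bp before the end of NLGN3-201 and NLGN3-202 and exactly at that of NLGN3-219. The most distal had 5 reads, AATAAA 20 bp upstream and an edge 51 bp past NLGN3-209, the transcript that ends last. Within 100 bp of a peak lay 10 of 13 complete protein-coding ends. The remaining peak, with 9 reads, ended 32 bp past NLGN3-220, a transcript with a retained intron. It was followed by 10 A in 10 bases.

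NLGN1 (ENSG00000169760.18, chr3:173396284-174294372, plus strand, 898 kb) had 61 peaks, of which 57 were intronic, 3 terminal and 1 exonic. The last exon region held 4 low peaks of 5, 7, 6 and 7 reads in order along the gene. The 7-read peaks ended exactly at NLGN1-201 and 2 bp before NLGN1-205, whereas no peak lay at the end of NLGN1-211, the canonical transcript and the most distal, whose end was 7730 bp past the nearest edge. Thus 2 of 4 complete protein-coding ends of NLGN1 were matched, both of them upstream of the canonical end. The peak at NLGN1-201 had ATTAAA 46 bp upstream and 9 A downstream, and the peak at NLGN1-205 had AATAAA 22 bp upstream.

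CNTN1 (ENSG00000018236.15, chr12:40692439-41072415, plus strand, 380 kb), whose protein joins axons to glia at the paranode, had 64 peaks: 56 intronic, 5 exonic and 3 terminal. Near the end of the gene, 5 peaks of similar height followed each other, with 18, 17, 22, 17 and 21 reads. The first ended 1 bp past CNTN1-206 and 23 bp before the protein-coding CNTN1-202, and the last 2 bp before the canonical CNTN1-208. The 3 in between lay in the last exon at no annotated end. The first of these 3 had AATAAA 20 bp upstream of its edge, the second had AATAAA only 73 bp upstream, and the third had ACTAAA 19 bp upstream. The sequences up to the edge of the 5 peaks, in order, are shown because 3 of them are not annotated as ends, with capitals for a hexamer found in the 30 bases.
CNTN1 (GRCh38, chr12:41070213-41070242, plus strand): atccaaaagAATAAActtttaaatggatat
CNTN1 (GRCh38, chr12:41071355-41071384, plus strand): gaaatcgagtAATAAAgaattagctggctt
CNTN1 (GRCh38, chr12:41071669-41071698, plus strand): aaacttttaaaaataagtgaaatggatgat
CNTN1 (GRCh38, chr12:41071897-41071926, plus strand): tataatcaacaACTAAAtcttttgccaaat
CNTN1 (GRCh38, chr12:41072384-41072413, plus strand): gtAATAAAtgtcttatgttacccaagaaag

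An early end of CNTN1 was also marked. A peak of 7 reads at 280 kb, with AATAAA 18 bp upstream, ended 94 bp before CNTN1-204, a protein-coding transcript of 16 exons against 24 in CNTN1-208. In total 4 of 5 complete protein-coding ends of CNTN1 had a peak within 100 bp. Upstream of this early end, a peak of 17 reads (−log10 q-value 20.8) at 247 kb lay in a coding exon, with AATGAA 12 bp upstream and 7 A downstream. In its sequence, capitals mark first that hexamer and then the 10 bases past the edge.
CNTN1 (GRCh38, chr12:40939326-40939385, plus strand): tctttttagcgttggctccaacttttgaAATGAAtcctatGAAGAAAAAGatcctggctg

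CNTN4 (ENSG00000144619.15, chr3:2098813-3057959, plus strand, 959 kb), a guidance protein of axons, had 74 peaks: 71 intronic, 2 terminal and 1 in a coding exon. The distal terminal peak had 10 reads (−log10 q-value 9.0) and ended 1 bp past CNTN4-203 and 7 bp past CNTN4-202. The other terminal peak, also of 10 reads (−log10 q-value 10.4), ended 9 bp past CNTN4-206, a transcript annotated for nonsense-mediated decay. CNTN4-AS1 runs on the opposite strand at both summits, so without strand their reads cannot be assigned between the 2 genes. The tallest peaks of CNTN4 were not terminal but intronic.

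NCAM1 (ENSG00000149294.18, chr11:112961275-113278436, plus strand, 317 kb) had 70 peaks (63 intronic, 4 terminal and 3 exonic) and the highest pileups of the 9 genes. Its last annotated exon region held 4 peaks of 24, 43, 25 and 41 reads. Only the last of them lay at an annotated end, 1 bp before NCAM1-201, with AATAAA 24 bp upstream. The 43-read peak (−log10 q-value 32.8), the highest among the members, lay in the last exon with none of the 12 hexamers in the 100 bp upstream, 7 A downstream, and 8 A in the corresponding bases on the opposite strand. The 25-read peak had no hexamer and 10 A downstream, and the 24-read peak had AGTAAA 46 bp upstream and 8 A downstream. The 30 bases up to the edge of the 43-read and the 25-read peak are shown in this order, because both are tall and lie at no annotated end. Neither holds a hexamer, so there are no capitals.
NCAM1 (GRCh38, chr11:113277048-113277077, plus strand): tcactcaaacggaatcgaagccttttaaca
NCAM1 (GRCh38, chr11:113277831-113277860, plus strand): atgcaagagtttttcctttaaaaaaaaaaa

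The earlier ends of NCAM1 carried no such peak. GENCODE 44 places the end of NCAM1-202, which has 16 exons, at 301.7 kb and those of most other protein-coding transcripts between 301.9 kb and 314.7 kb, against 317.2 kb for NCAM1-201. Among these earlier ends the closest edge lay 767 bp past NCAM1-215, and the edge nearest to NCAM1-202 was 4197 bp away. In total 1 of 12 complete protein-coding ends was matched, the lowest share among genes with any match. Upstream, 2 short transcripts of NCAM1 without a defined coding sequence had low peaks near their ends: 4 reads ended 44 bp before NCAM1-222, 8 reads ended 466 bp past it, and 11 reads ended 172 bp before NCAM1-221. TTC12-DT lies on the opposite strand at the distal NCAM1 peak, whose edge was 56 bp from an annotated end of that transcript, so a contribution of its reads cannot be told apart.

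L1CAM (ENSG00000198910.14, chrX:153861514-153886173, minus strand, 24.7 kb) had 3 peaks and no intronic peak (Poisson upper limit 15 per 100 kb). The terminal peak of 27 reads (−log10 q-value 29.0) ended 2 bp past L1CAM-202 and 4 bp past L1CAM-205, the canonical transcript of 29 exons, and was 388 bp wide. The 3 complete protein-coding ends upstream of it, at 23.6, 23.7 and 24.2 kb, had no peak of their own. A further peak of 25 reads (−log10 q-value 28.5) lay at the start of the gene, in an exon of L1CAM-216, with L1CAM-AS1 on the other strand and a further gene, ENSG00000284987, on the same strand. Reads of the 3 genes cannot be told apart in this list. A peak of 12 reads in a coding exon ended 89 bp past the end of the retained-intron transcript L1CAM-215.

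Over the 9 genes, 16 of 19 terminal peaks had an edge within 100 bp of an annotated end (84.2%, 62.4% to 94.5%) and 10 within 2 bp, whereas none of the 12 exonic and none of the 254 intronic peaks did (Wilson upper limits 24.2% and 1.49%). Since a summit near an annotated end is terminal by definition, this contrast is set in part by the classes themselves. Read from the transcripts, 28 of 67 complete protein-coding ends had an edge within 100 bp. The share was highest in CNTN1 (4 of 5) and NLGN3 (10 of 13) and lowest in NCAM1 (1 of 12) and NRXN3 (0 of 11). Of the 31 terminal and exonic peaks, 5 lay in a coding exon. For these counts no share over all protein-coding genes was computed, so they only describe the 9 genes.

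Signal hexamers were commoner at terminal than at intronic peaks. Any of 12 hexamers lay within 100 bp upstream of the edge in 15 of 19 terminal peaks (78.9%, 56.7% to 91.5%, against 77.7% of all terminal peaks) and in 139 of 254 intronic peaks (54.7%, 48.6% to 60.7%, against 49.5%). With the search narrowed to AATAAA or ATTAAA beginning 15 to 35 bp upstream, the counts were 9 of 19 (47.4%, 27.3% to 68.3%, against 44.4%) and 27 of 254 (10.6%, 7.41% to 15%, against 11.1%). The intervals of the 2 classes overlapped for any hexamer and did not overlap for the narrow search. In both classes the members' shares lay close to those of all genes. The same narrow search matched 2 of 12 exonic peaks.

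A-rich sequence downstream was common at the intronic peaks. At least 7 of the 10 bases past the edge were A in 201 of 254 intronic peaks on the gene's strand (79.1%, 73.7% to 83.7%, against 66.8% over all genes). On the opposite strand only 11 were A-rich (4.33%, 2.44% to 7.59%, against 5.96%), and 46 (18.1%) were A-rich on neither. Among terminal peaks 6 of 19 were A-rich (31.6%, 15.4% to 54.0%, against 20%). The share was alike in the 4 long genes: 45 of 57 in NLGN1, 42 of 56 in CNTN1, 60 of 71 in CNTN4 and 50 of 63 in NCAM1. Which of these peaks come from priming on genomic A and which from a poly(A) tail was not tested, and no peak was removed for A-rich sequence.

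**Figure D3:**
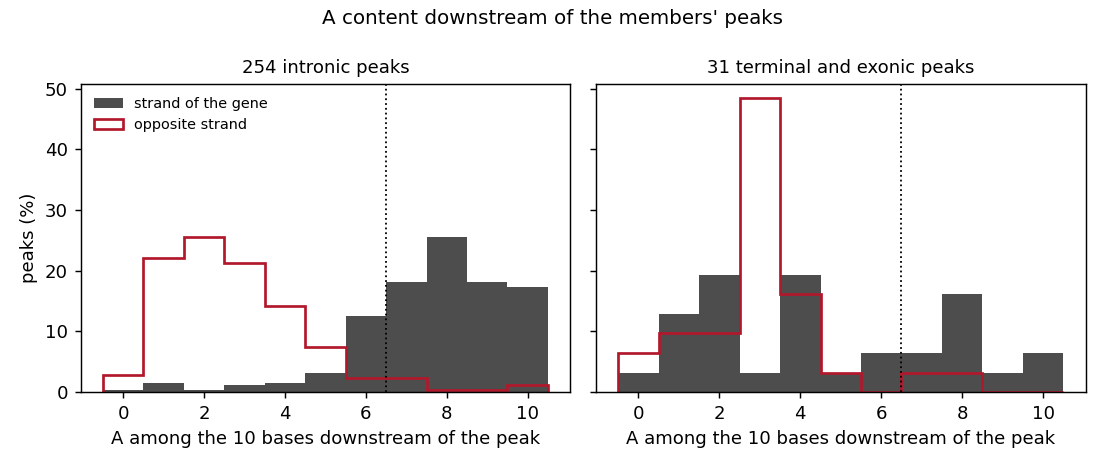
Histograms of the number of A among the 10 bases downstream of the peak (x axis) as a percentage of peaks (y axis), for intronic peaks (254) and for the 31 terminal and exonic peaks, on the gene's strand (grey) and the opposite strand (red line), with a dotted line at the limit of 7. Intronic peaks pile up at 7 to 10 A on the gene's strand (79.1%) and few do so on the opposite strand (4.33%).

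Few intronic peaks had the signal without the A-rich sequence. AATAAA or ATTAAA 15 to 35 bp upstream without A-rich sequence downstream was found in 12 of 254 intronic peaks (4.72%, 2.72% to 8.07%, against 7.16%). Of these 12, 5 were in CNTN4, 4 in CNTN1, 2 in NCAM1 and 1 in NLGN1. Examples with such a signal are shown, of which those in CNTN4 follow from the rank of their q-value in that gene. The first has the highest q-value of all intronic peaks in CNTN4 (17 reads, −log10 q-value 21.7, 2.90 kb from the start) and the second the third highest (13 reads, 14.8). The last, with 4 reads, lay 0.753 kb from the start of NLGN1 and was chosen after its values were seen. Capitals mark the hexamer nearest to the edge in the 40 bases up to it, and 20 bases past the edge are shown. In the NLGN1 sequence the AATAAA that was counted begins 26 bp upstream, before the one in capitals.
CNTN4 (GRCh38, chr3:2101757-2101816, plus strand): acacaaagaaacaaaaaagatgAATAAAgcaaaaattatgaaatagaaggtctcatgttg
CNTN4 (GRCh38, chr3:2283164-2283223, plus strand): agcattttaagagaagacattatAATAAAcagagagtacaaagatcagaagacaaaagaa
NLGN1 (GRCh38, chr3:173397051-173397110, plus strand): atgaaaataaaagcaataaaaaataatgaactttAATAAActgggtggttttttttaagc

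In the NLGN1 peak the 10 bases past the edge held 0 A. In both CNTN4 peaks they held 6, 1 short of the limit, so the line between the classes is thin there. A pair of other CNTN4 peaks of this group, with 8 and 5 reads, had 3 A past the edge, and CNTN4-AS2 overlaps both on the opposite strand. The 5-read peak was A-rich on the strand of CNTN4-AS2, with AGTAAA 15 bp upstream on that strand. From which strand its reads came was not tested. A further CNTN4 peak, the second highest by q-value (20 reads, 20.6), had AATAAA 16 bp upstream and 8 A downstream. All 9 intronic CNTN4 peaks with AATAAA or ATTAAA at that distance lay in introns 2 and 3, none beyond 43.3% of the gene. Intronic peaks of CNTN4 in general were also frequent there. Of all 71, intron 2 held 36 and intron 3 held 10, and 47 lay nearer to the 5′ end.

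The intronic peaks with the highest q-values in the other long genes were mostly of the A-rich kind. In NLGN1 the 3 with the highest q-value had 14, 15 and 11 reads, 10 of 10 A downstream and no hexamer. The third of these ended 18 bp before the end of the lncRNA gene ENSG00000289417, which runs on the same strand. In NCAM1 they had 19, 22 and 20 reads with 8, 7 and 9 A. In CNTN1 they had 16, 17 and 15 reads with 8, 6 and 7 A, so that 1 of the 3 was just under the limit. The 60 bases around the edge show this kind in NLGN1 and CNTN1, with the 10 bases past the edge in capitals.
NLGN1 (GRCh38, chr3:173994435-173994494, plus strand): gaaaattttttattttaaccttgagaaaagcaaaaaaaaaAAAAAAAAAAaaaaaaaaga
NLGN1 (GRCh38, chr3:173811534-173811593, plus strand): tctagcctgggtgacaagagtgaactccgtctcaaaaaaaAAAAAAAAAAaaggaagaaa
CNTN1 (GRCh38, chr12:40704009-40704068, plus strand): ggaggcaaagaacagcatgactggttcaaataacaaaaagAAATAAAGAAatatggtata

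Related sequence recurred among these peaks. When the 300 bases up to the edge were aligned with each other by BLAST, 78 of 254 intronic peaks (30.7%) shared at least 150 bases at 75% identity or more with another intronic peak of the 9 genes, 74 of them with one in another gene. The median identity was 80.7% over 272 bases, 76 matched on the same strand, and a single peak had at most 54 like it. Of the 78, 73 were A-rich downstream (93.6%), and of the 176 without a match 128 (72.7%). The second NLGN1 sequence above, whose last bases before the A run resemble the 3′ part of an Alu repeat, is of this kind by its letters. No repeat annotation was used, and how reads of near-identical copies were placed was not tested. No share for intronic peaks of other genes was computed, so 30.7% has no reference level.

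Intronic peaks were densest in NCAM1 and CNTN1. Per 100 kb of gene there were 19.9 (15.3 to 25.4) in NCAM1, 14.7 (11.1 to 19.1) in CNTN1, 7.40 (5.78 to 9.34) in CNTN4, 6.67 (0.169 to 37.2) in NLGN2, from 1 peak, 6.35 (4.81 to 8.22) in NLGN1, 2.56 (0.529 to 7.49) in NRXN2 and 0.177 in NRXN3. Among protein-coding genes that had both a terminal peak and an intron, the median was 9.01 (quartiles 1.67 and 14.2). NCAM1 and CNTN1 had overlapping intervals, as had CNTN4 and NLGN1, while the interval of CNTN1 lay above that of CNTN4. Only 7.48% of those genes had a density as high as NCAM1. NCAM1, CNTN1, CNTN4 and NLGN1 had the same order in density and in terminal pileup, which is a description of 4 genes. That order did not hold over all 9 genes. L1CAM had a terminal pileup of 27 reads and NLGN3 of 14 without an intronic peak. NRXN2 had 15 reads at 2.56 intronic peaks per 100 kb, and NLGN2 had 18 at 6.67.

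Along the genes, 144 of 254 intronic peaks lay nearer to the 5′ than to the 3′ end of the gene (56.7%, 50.5% to 62.6%, against 53.4%). The genes differed among themselves: 40 of 56 in CNTN1 (71.4%, 58.5% to 81.6%) and 47 of 71 in CNTN4 (66.2%, 54.6% to 76.1%), but 27 of 57 in NLGN1 (47.4%, 35% to 60.1%) and 29 of 63 in NCAM1 (46%, 34.3% to 58.2%). In CNTN1, intron 1 held 41 of 56 intronic peaks (73.2%) in 57.6% of the intron length. In NCAM1, intron 1 held 51 of 63 (81.0%) in 77.4% of the length. The 2 shares were close for intron 1 of NCAM1 but not for every intron: intron 9 held 5 peaks (7.94%) in 3.32% of the length, and introns 7 and 8 held none.

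CNTN4 stood apart in its 5′ part. Intron 2 of CNTN4-203 held 36 of 71 intronic peaks (50.7%) in 25% of the intron length, or 15.1 per 100 kb, against 4.31 in intron 3 and 6.68 in intron 4. The gene was also divided at the starts of its protein-coding transcripts, a division made after the positions were seen. The first 140 kb, up to the second cluster of starts, held 32 intronic peaks, or 22.9 per 100 kb (15.6 to 32.3). The next 273 kb held 9, or 3.30 per 100 kb (1.51 to 6.26). The 3 remaining stretches had 8.38, 4.67 and 6.03 per 100 kb. The density was thus lower past the second cluster of starts than before it, and the intervals of the first 2 stretches did not overlap. CNTN4-AS2, on the opposite strand, overlaps 9 of the 32 peaks of the first stretch, with 5 to 8 reads each, from 12.1 to 34.1 kb. Of these 9, 6 were A-rich downstream on the strand of CNTN4 and 1 on that of CNTN4-AS2. Without the 9, a count made after the data were seen, the first stretch held 23 peaks, or 16.4 per 100 kb (10.4 to 24.6), still above the interval of the next stretch.

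NLGN1 showed the opposite order. Its first 188 kb, upstream of the second cluster of starts, held 4 intronic peaks (2.12 per 100 kb, 0.579 to 5.44) and the remaining 710 kb held 53 (7.47, 5.59 to 9.77). Intron 1 of NLGN1-211 had 1.45 per 100 kb, intron 3 had 9.40 and intron 4 had 7.06. In CNTN1 the density was 22, 22.1, 13.7 and 9.14 per 100 kb in 4 successive stretches between starts. In NCAM1 it was 20.7, 16.9 and 13.3 in 3 stretches, with wide intervals for the last 2, which held 4 and 3 peaks. NCAM1-AS1 overlaps 2 of the last 3, and without them that stretch had 4.45 per 100 kb (0.113 to 24.8).

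Other genes of the same pathways were read in the same way. Of 38 listed, 32 had a peak, 30 a terminal peak and 29 an intronic peak, with 967 peaks in all, of which 846 were intronic. This intronic share was close to that of the members (254 of 285). Both lay above the 70.9% of all peaks in protein-coding genes, so a high intronic share was not particular to the members. The highest terminal pileup of the listed genes had a median of 19 reads (4 to 43). CNTN2, a contactin of axons, had the highest terminal pileup of the list at 43, and CADM1, another synaptic adhesion protein, had 41. ST8SIA2, an enzyme that adds polysialic acid to NCAM1, had 26, and CNTNAP1, the partner of CNTN1 at the paranode, had 33. Among scaffold proteins CASK, which binds neurexins inside the cell, had 40 and GPHN, which lies behind NLGN2 at inhibitory synapses, had 16. CNTN6, CNTNAP4, LRRTM3, LRRTM4, CBLN2 and CBLN4 had no peak.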

How the data were processed

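Single-end QuantSeq REV reads (3′ mRNA-seq) of 10 libraries had been trimmed, mapped to GRCh38 with STAR 2.5.1b, downsampled for the knockdown libraries to the smallest library, merged and searched for peaks by MACS2 2.1.1, with reads extended to 100 bp, all by the authors. The deposited list gives for each peak a score, a fold (ratio of the summit pileup to the local background), the −log10 of a p-value and of a q-value, and a summit offset. MACS2 by default keeps 1 read per position and strand, so a pileup counts distinct read starts. Depth per library is not known from the list, and 0 per-sample columns were left unused. The paper also describes removing peaks with no signal hexamer that lay next to a genomic run of A. That run was 25 A with up to 3 mismatches, within 50 bp downstream. Read from the 3′ edge, peaks of this kind were still in the list, for example CNTN1 summits 40725315 and 40755142. They were kept, so the counts, shares and densities given here include them.

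Pileups were recovered from the fold and p-value (largest miss 0.000168 in −log10 p). Summits were classed with GENCODE 44, first by terminal window, then exon, then intron. A peak in overlapping genes was counted for each, giving 162226 peak and gene pairs in 20033 protein-coding genes as background. Hexamers and A content were read from the 3′ edge on the gene's strand, since extended reads reach upstream from the cleavage site. Groups came from the sample labels, but no comparison between groups and no test could be made. Steps were tested on simulated data.

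Singly described peaks were, per gene, the terminal peak with the highest q-value, other terminal or exonic peaks within 100 bp of another transcript's end, and the 3 intronic peaks with the highest q-value. Others were chosen after their values were seen, among them the exonic peaks at no annotated end and the tall peaks of the last exons. The members, gene lists and limits were chosen with earlier results of these data known. Alternatives changed the q-value limit, the peak position, the motif set and window, the A limit, the terminal window, the transcripts, the reach past the gene end and the merging of peaks. Analyses ran in Python 3.11.15 (pandas 2.3.3, scipy 1.17.1, numpy 2.4.6, matplotlib 3.10.9, pysam 0.24.0) with BLAST 2.17.0 and samtools 1.23.1. A listed gene and some sequences are not reported here.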

Additional observations from a re-analysis of the deposited data

How the results depend on the processing

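No paired analysis was possible because every deposited value is pooled over the libraries, and for the same reason no replicate could be left out. Of 39 alternative values of the main results, 25 stayed within the interval or within 1.5 times of the value given. With a −log10 q-value limit of 5 there were 172 peaks, of which 84.3% were intronic. With a limit of 20 there were 12, of which 50% were intronic, 25% terminal and 25% exonic, and 83.3% of the intronic ones (6 peaks) lay nearer the 5′ end. With canonical transcripts alone, 2.47% of peaks were terminal. The share of members' peaks with a hexamer, 56.8% over all classes, became 41.8% from the summit, 43.5% within 50 bp and 26.7% with AATAAA or ATTAAA alone. The A-rich share of intronic peaks became 91.7% with at least 6 A, 61.0% with at least 8 A and 2.36% when read from the summit. Leaving out peaks with a gene on the opposite strand, chosen after seeing the data, gave 57.3% and 80.1%. The same step took the density of intronic peaks in the first 140 kb of CNTN4 from 22.9 to 16.4 per 100 kb and in the last stretch of NCAM1 from 13.3 to 4.45, both within the counting interval. Within 25 bp, also chosen after seeing the data, 11 of the 19 terminal edges matched an end. Of 45 counts for single genes, 33 stayed within 1.5 times, and the 12 that moved did so with the q-value limit. Pileups of 3 to 43 reads limit every height given here.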

Other observations

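Genes on the opposite strand overlapped 20 of the members' 285 peaks at the summit (14 of them intronic). Of the 20, 9 lay at CNTN4-AS2, 3 at CNTN4-AS1, 2 each at NCAM1-AS1, TTC12-DT and NRXN2-AS1, and 1 each at L1CAM-AS1 and ENSG00000247416. In all, 10 were A-rich downstream on the strand of the member and 1 on the opposite strand. An intronic peak of 6 reads in NCAM1, at 306.6 kb, ended 13 bp from an annotated end of NCAM1-AS1 when read on the minus strand, with AATAAA 18 bp upstream on that strand. It was chosen after its values were seen. In NCAM1, TTC12-DT lay opposite the 25-read exonic peak as well as the 41-read terminal peak. In NRXN2, NRXN2-AS1 lay opposite the coding-exon peak of 8 reads and the intronic peak of 4 reads. The strand of these reads was not tested.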
